A study of Homo sapiens with 6 samples.

Results

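The genes described here are 39 genes of sugar and lactate transport, glycolysis and its switches, and the usual targets of the hypoxia response, read in Daoy cells treated with the ER stress inducer thapsigargin (Tg). They were chosen by name: 6 sugar transporters, 2 lactate transporters, 16 glycolytic enzymes with the lactate dehydrogenases, 3 PFKFB kinases, 4 PDK kinases and 8 other hypoxia targets. Daoy is an established line from a human medulloblastoma, a tumour of the cerebellum, and every group came from this 1 line with no genetic change named. Cells were treated with 1 µM Tg for 3 h or 8 h or were left untreated, and RNA of each of the 3 groups was hybridized to 2 arrays, numbered replicate 1 and replicate 2. The study asked which transcripts the unfolded protein response (UPR) changes. None of the 6 arrays held RNA of hypoxic cells.

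Of the 39 genes, 36 had a probe set annotated to them alone, and 34 were tested, out of 12839 genes tested in the series and 19775 with a probe set of their own. The lactate transporters SLC16A1 and SLC16A3 and the carbonic anhydrase CA9 had no probe set named to them in the annotation used, so their levels were not analysed here. PFKFB2, with 4 probe sets, and PDK4, with 3, were too dim to test, and none of their signals exceeded 113.5. A signal is the linear brightness of a probe set after each array had been scaled to one trimmed mean, and a probe set was tested when it reached a signal of 100 on 2 or more arrays. Each gene was read from its brightest probe set, and signals are compared between groups, not between genes.

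Glucose enters cells through the SLC2A (GLUT) transporters and is trapped by hexokinases, and the glycolytic enzymes carry it to pyruvate, which lactate dehydrogenases turn into lactate. The PFKFB enzymes set the level of fructose 2,6-bisphosphate, the activator of phosphofructokinase, and the PDK kinases switch off pyruvate dehydrogenase and so keep pyruvate out of the mitochondrion. When oxygen is short, hypoxia inducible factors (HIFs) bind promoters of many of these genes and raise them together, which is why glycolytic genes such as PGK1 and LDHA serve as HIF reporters. The UPR is a separate response, to misfolded protein in the ER, which Tg provokes by emptying the ER of calcium.

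Few of these genes passed a test, and the shares of all genes that did, which differ between the fits, are given below. At 8 h of Tg, NDRG1, a stress-responsive gene that hypoxia induces, rose 3.14-fold, and the sugar transporter SLC2A12 fell to signals under 100, from which no precise fold can be read. With the replicate number as a block, the hexokinase gene HK2 and the neuronal-type glucose transporter SLC2A3 also rose and the carbonic anhydrase CA12 fell. The rise of HK2 was that of its brightest probe set, and its 2 others had negative values. The call of SLC2A3 was also that of its brightest probe set, and another nearly as bright had a log2 fold change of -0.10. The glycolytic enzymes other than HK2 stayed near their untreated signals: their 15 log2 fold changes at 8 h lay between -0.58 and 0.04, and none passed a test. At 3 h no tested member passed in either fit.

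These counts stand against the background of all 12839 genes. Without the block, limma called 0 of the 34 members higher and 0 lower at 3 h, where 0.0701% and 0% of all genes were called, and 2 members had an unadjusted p under 0.05, both of them higher, where 3.26% of all genes were higher and 1.24% lower at that level. At 8 h it called 1 member higher and 1 lower, 2.94% of 34 each, against 0.646% and 0.21% of all genes. With the block, 0 members were called either way at 3 h, against 1.17% of all genes higher and 0.0779% lower, and before adjustment 3 members were higher and 2 lower, as were 7.27% and 5.82% of all genes. The blocked fit called 3 members higher at 8 h (8.82%), against 4.76% of all genes, and 2 lower (5.88%), against 3.79%. Shares of 34 rest on 1 to 3 genes. The local pooled error test named in the study's methods, rebuilt here, called NDRG1 higher at 8 h, where it called 1.05% of all genes, and no member lower, where it called 0.21%. Calls are made at an adjusted p under 0.05, over all 27616 probe sets tested.

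**Figure D1:**
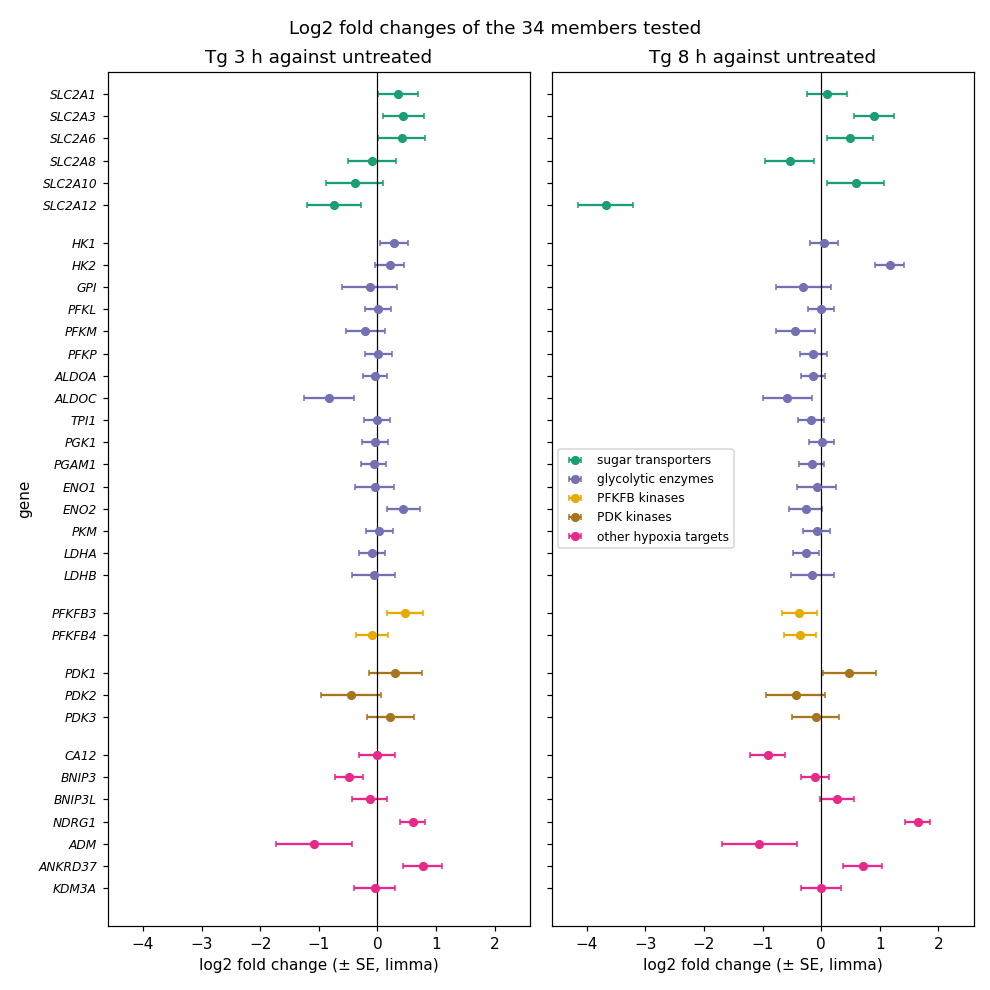
Log2 fold change of each of the 34 tested members (horizontal axis, ± standard error from limma without the block) at 3 h of Tg (left) and 8 h of Tg (right) against untreated cells, 2 arrays per group, coloured by group of genes. At 8 h SLC2A12 lies at -3.68, NDRG1 at 1.65 and HK2 at 1.17, while 14 of the 16 glycolytic enzymes lie within 0.5 of 0.

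No label says that arrays of one replicate number share a batch, but each number held all 3 groups, and the number was used as a block because the arrays grouped by it. The hybridization controls, which are added to the labelled sample, stood apart: the geometric mean was 9202 to 14066 for replicate 1, but 3314 to 3557 for replicate 2. Of the 34 members, 22 differed between replicate 2 and replicate 1 in the same direction in all 3 groups, among them SLC2A1, GPI, PDK1, ADM and ANKRD37. That count was not made over all tested genes, so it is not read as particular to the members. Over probe sets of the series with a mean signal of at least 500, deviations of same-numbered arrays correlated at 0.66 to 0.70. The block changes the error of a fold change and leaves its size as it is. All 12 UPR genes used as a check of the treatment were higher at 8 h, with a median log2 fold change of 2.29; 4 of them rose without the block and 10 with it. All 8 markers of the neural precursor lineage reached a signal of 100 on every array, with sums of 41165 to 66735. All 8 had log2 fold changes below 0 at 8 h, from -1.18 to -0.12 with a median of -0.53, and 1 of them, GLI2, fell in the blocked fit (adjusted p = 0.0248); the part of this in the results was not tested. The 3 immune markers with a probe set summed to 41.5 to 170, and the 5 endothelial ones to 436 to 649. The 4 fibroblast markers, of which 2 or 3 reached 100, summed to 18243 to 34038, highest on the untreated arrays within each replicate number; their part in the results was not tested. In RNA from whole cultures, a lower level in every cell and fewer cells carrying the transcript cannot be told apart.

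The promoters of the members differ in their matches to a core that HIFs bind, and 5 of them are printed below. HIFs bind a short core, ACGTG or GCGTG, and RefSeq promoters of 300 bases (250 before and 50 after each transcription start, GRCh38.p14) were searched for it on both strands. The table used held 63 entries for 34 of the 39 genes and none for SLC2A3, SLC16A1, PFKFB2, BNIP3L and NDRG1. At least 1 entry held ACGTG for 19 of the 34 genes (55.9%), against 24.9% of all 27305 genes, and GCGTG for 22 (64.7%), against 40.6%. The list was chosen in part as HIF targets, so this describes the choice. A gene with more entries also has more chances to match: the members had 63 entries for 34 genes, and all 27305 genes had 35116. These 27305 are all genes with a promoter entry, whether or not they were tested on the arrays. HK2 and SLC2A12 are shown because they moved at 8 h, HK2 on its brightest probe set only. LDHA and PGK1 are shown as usual HIF reporters that passed no test here. ANKRD37 is shown for its 2 closely spaced ACGTG matches, a spacing that LDHA and PGK1 also hold. Where a gene had several entries, the one with most matches is printed, 5′ to 3′ on the gene's own strand, with ACGTG or its complement CACGT in capitals (the palindrome CACGTG is both).
HK2, chr2:74834920-74835219, plus strand: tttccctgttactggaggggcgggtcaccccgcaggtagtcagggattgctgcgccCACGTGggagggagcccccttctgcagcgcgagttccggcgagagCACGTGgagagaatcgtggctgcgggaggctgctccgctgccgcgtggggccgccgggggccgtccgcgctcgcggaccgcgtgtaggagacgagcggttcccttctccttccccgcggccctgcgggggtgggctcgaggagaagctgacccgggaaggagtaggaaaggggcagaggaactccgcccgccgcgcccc
SLC2A12, chr6:134052575-134052874, minus strand: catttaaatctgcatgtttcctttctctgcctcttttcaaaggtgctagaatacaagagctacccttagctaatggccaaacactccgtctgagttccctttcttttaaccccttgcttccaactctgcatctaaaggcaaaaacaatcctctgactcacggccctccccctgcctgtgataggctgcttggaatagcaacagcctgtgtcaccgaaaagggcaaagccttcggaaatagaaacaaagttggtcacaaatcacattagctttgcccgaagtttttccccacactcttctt
ANKRD37, chr4:185396591-185396890, plus strand: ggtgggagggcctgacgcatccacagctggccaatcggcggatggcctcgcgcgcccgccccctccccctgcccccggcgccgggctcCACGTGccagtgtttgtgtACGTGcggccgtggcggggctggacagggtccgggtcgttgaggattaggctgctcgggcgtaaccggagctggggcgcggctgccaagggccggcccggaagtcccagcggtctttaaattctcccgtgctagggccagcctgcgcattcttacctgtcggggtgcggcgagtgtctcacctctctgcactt
LDHA, chr11:18394313-18394612, plus strand: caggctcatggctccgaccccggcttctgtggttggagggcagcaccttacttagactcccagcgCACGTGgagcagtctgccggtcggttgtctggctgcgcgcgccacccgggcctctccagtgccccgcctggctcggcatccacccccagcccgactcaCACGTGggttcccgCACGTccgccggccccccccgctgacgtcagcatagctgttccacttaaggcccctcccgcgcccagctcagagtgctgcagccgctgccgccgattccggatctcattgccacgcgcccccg
PGK1, chrX:78103998-78104297, plus strand: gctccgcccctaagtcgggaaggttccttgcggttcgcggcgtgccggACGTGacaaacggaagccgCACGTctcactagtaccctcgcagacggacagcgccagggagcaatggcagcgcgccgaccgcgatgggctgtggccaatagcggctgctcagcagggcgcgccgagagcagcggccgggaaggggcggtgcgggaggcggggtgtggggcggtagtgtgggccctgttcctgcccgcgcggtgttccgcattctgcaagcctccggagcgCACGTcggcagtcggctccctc

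In the printed entry, HK2 held ACGTG at 2 places, both CACGTG, which begin 194 and 149 bases before the start. LDHA held ACGTG at 3 places, beginning 185, 87 and 73 bases before the start. PGK1 also held it at 3, beginning 202 and 183 bases before the start, with 1 after the start. ANKRD37 held it at 2, beginning 162 and 143 bases before the start. The other core, GCGTG, which is not capitalised, matched 2 times in HK2, 1 time each in LDHA and PGK1, and not in ANKRD37. SLC2A12 held neither. Of the UPR motifs, the core TGACGTGG, to which spliced XBP-1 binds and which contains ACGTG, was in 0 of the 34 genes and 0.927% of all genes. The ATF4 and CHOP composite site TGATGCAAT was in 1 of the 34 (HK1) and 0.293% of all genes, and the ER stress element, searched by its full consensus on both strands, was in 0 and 0.0916%. A match to these letters is not a bound site, and windows of this length leave out distal elements. Whether a match had a part in any change was not tested.

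Among the sugar transporters, SLC2A12 had the largest change in either direction. It encodes GLUT12, a facilitative glucose carrier. Its signals were 587 and 545 in untreated cells, 302 and 377 at 3 h and 28.6 and 68.2 at 8 h. The groups did not overlap at either time. Both 8 h signals lay below 100, and the probe set was tested because its untreated and 3 h signals exceeded 100. SLC2A12 fell by 3.68 on the log2 scale at 8 h (standard error 0.46, 95% interval -4.75 to -2.61, adjusted p = 0.0209 by limma, and 0.000685 in the blocked fit), and by 2.50 with signals under 100 raised to 100. At 3 h its log2 fold change was -0.75 (adjusted p = 1.00, and 0.493 with the block). The change at 8 h was -4.36 on the replicate 1 arrays and -3.00 on the replicate 2 arrays. A second probe set, dimmer, had 262 and 254 in untreated cells, 95.3 and 140.9 at 3 h and 57.6 and 19.9 at 8 h, a log2 fold change of -1.15 and then -2.93 (adjusted p = 0.142 at 8 h, and 0.0280 with the block). SLC2A12 lost its call without the block by the local pooled error test (adjusted p = 0.320), without an intensity trend (0.177), with only the 4 arrays compared (0.0501), and when Tg 3 h replicate 2 (0.0530), Tg 8 h replicate 1 (0.0699), untreated replicate 1 (0.114) or untreated replicate 2 (0.0541) was left out. It kept its call in the blocked fit when any single array was left out.

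SLC2A3 encodes GLUT3, the high-affinity glucose transporter of neurons. Its signals were 373 and 591 in untreated cells, 510.4 and 798 at 3 h and 716 and 1072 at 8 h. Within each replicate number the 3 signals stepped up with time, and replicate 2 exceeded replicate 1 in every group, which is the part of the spread the block takes out. The log2 fold change at 8 h was 0.90 (standard error 0.35, or 0.18 with the block), and it rose in the blocked fit only (adjusted p = 0.0164, against 0.440 without the block). At 3 h it was 0.44 (blocked adjusted p = 0.381). The blocked call was lost without Tg 8 h replicate 1 (0.114), untreated replicate 1 (0.145) or untreated replicate 2 (0.0822). The other probe sets of SLC2A3 had -0.10 and 0.58 at 8 h, neither past the threshold. The one with -0.10 was nearly as bright as the one used (557 and 786 in untreated cells, 571 and 667 at 8 h). The mean of all these probe sets was 0.46 at 8 h (adjusted p = 0.547 by limma without the block), and the blocked call is that of the brightest alone. A further 2 probe sets that SLC2A3 shares with its near copy SLC2A14 were not used.

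SLC2A1 encodes GLUT1, the main basal glucose transporter and a classical HIF target. Its signals were 1014 and 2057 in untreated cells, 1679 and 2033 at 3 h and 1335 and 1776 at 8 h. The untreated arrays differed from each other by 1.02 on the log2 scale, more than the mean of either Tg group differed from theirs. Its log2 fold changes were 0.36 at 3 h and 0.09 at 8 h, with a blocked 95% interval of -0.33 to 0.51 at 8 h. The remaining sugar transporters, SLC2A6, SLC2A8 and SLC2A10, did not pass: their 3 h values on the log2 scale were 0.41, -0.09 and -0.39, and their 8 h values 0.50, -0.54 and 0.59. SLC2A10 (GLUT10) had both 8 h arrays, 342 and 609, above both untreated arrays, 331 and 279, but its change was 0.05 on replicate 1 and 1.13 on replicate 2. The median of the 6 transporters was 0.29 at 8 h and 2 of them lay within 0.5 of 0, whereas all tested genes had a median of -0.09 with 71.1% within 0.5.

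**Figure D2:**
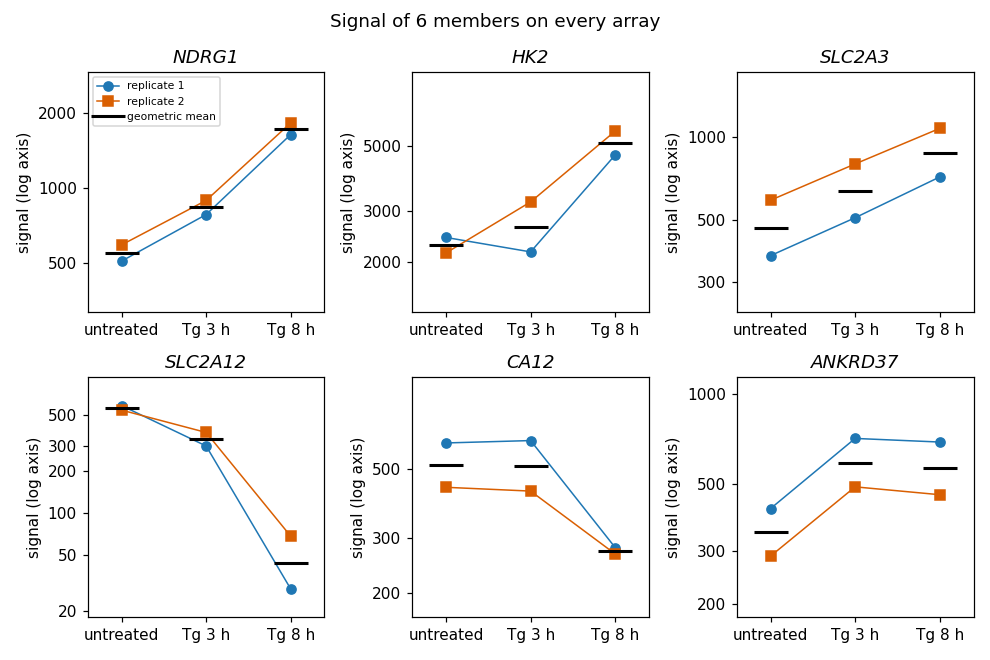
Signal (vertical axis, log scale, set separately in each panel) of 6 members on each of the 6 arrays, by group, with lines that join arrays of the same replicate number and a black bar at the geometric mean of each group. NDRG1 reached 1635 and 1820 at 8 h against 510 and 592 in untreated cells, SLC2A12 dropped below 100 at 8 h, and SLC2A3, CA12 and ANKRD37 kept a gap between the replicate numbers in most groups.

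HK2 is the inducible hexokinase of tumour cells and muscle. Its brightest probe set departed from the rest of the pathway, while its dimmer ones had values below 0 at 8 h. Its signals were 2424 and 2145 in untreated cells, 2162 and 3215 at 3 h and 4663 and 5634 at 8 h. Both 8 h arrays lay above all 4 others, while the 3 h arrays fell on either side of the untreated ones. The log2 fold change at 8 h was 1.17, or 2.25-fold (standard error 0.25, or 0.17 with the block), and it rose in the blocked fit (adjusted p = 0.00384, 95% interval 0.78 to 1.55) but not without the block (0.104) or by the local pooled error test (0.170). The change was 0.94 on replicate 1 and 1.39 on replicate 2. At 3 h it was 0.21. In the blocked fit HK2 was also higher at 8 h than at 3 h, by 0.96 (adjusted p = 0.0232).

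The probe sets of HK2 did not move together. The brightest, used above, had 1.17 at 8 h, and 2 dimmer ones had -1.06 (signals of 514 and 209 at 8 h against 701 and 670.1 in untreated cells, blocked adjusted p = 0.0597) and -0.58 (317 and 316 at 8 h against 518 and 435, blocked adjusted p = 0.167). The mean of the 3 probe sets was -0.16 at 8 h (adjusted p = 0.818 by limma), so the rise of HK2 rests on the choice of its brightest probe set. Where in the transcript each probe set lies was not looked up. HK1, the housekeeping hexokinase, had 0.28 at 3 h and 0.04 at 8 h, with a blocked interval of -0.27 to 0.36 at 8 h.

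No other glycolytic enzyme passed a test. PGK1, which makes the first ATP of the pathway, had signals of 14612 and 16311 in untreated cells, 13806 and 16274 at 3 h and 15245 and 15770.3 at 8 h. The 3 groups overlapped on all sides. Its log2 fold change at 8 h was 0.01, with a 95% interval of -0.50 to 0.51, or -0.24 to 0.25 with the block. LDHA, which reduces pyruvate to lactate, had 23636 and 23155 in untreated cells, 22495 and 21281 at 3 h and 18828 and 20189 at 8 h. Both arrays of each Tg group lay below both untreated arrays, by small amounts. Its log2 fold change was -0.10 at 3 h and -0.26 at 8 h (blocked interval -0.50 to -0.02, adjusted p = 0.202). The promoters of both genes, printed above, hold ACGTG at 3 places each.

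Along the pathway at 8 h, the log2 fold changes were -0.31 for the isomerase GPI, -0.00 for PFKL, -0.44 for PFKM and -0.13 for PFKP, the 3 phosphofructokinases, and -0.14 for the aldolase ALDOA. They were -0.17 for TPI1, -0.16 for the mutase PGAM1, -0.07 for the enolase ENO1, -0.07 for the pyruvate kinase PKM and -0.15 for LDHB. The tissue-restricted forms ALDOC and ENO2 had -0.58 and -0.26. ALDOC signals were 141 and 132 at 8 h against 236 and 174 in untreated cells, close to the minimum for testing. Among the 16 enzymes the blocked 95% interval lay within 1 log2 unit of 0 for 14 at 8 h, the exceptions being HK2 and ALDOC, and within 0.5 for 10. Without the block it lay within 1 unit for 12.

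The median of the 16 enzymes was -0.04 at 3 h and -0.14 at 8 h, with 15 and then 14 of them within 0.5 of 0. Among all tested genes the medians were -0.02 and -0.09, with 81.3% and 71.1% within 0.5. Bright probe sets vary less, and 12 of the enzymes had a mean signal of at least 2000. Over the 3104 genes as bright, the median at 8 h was -0.05 and 85.3% lay within 0.5, against 11 of these 12 enzymes (91.7%). Small changes were thus usual for genes of this brightness.

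Of the PFKFB kinases, PFKFB3, the hypoxia-inducible form with the highest kinase activity, had signals of 476 and 695 in untreated cells, 870.2 and 734 at 3 h and 363 and 544 at 8 h. It lay above the untreated arrays at 3 h and overlapped them at 8 h. Its log2 fold change was 0.47 at 3 h (0.87 on replicate 1, 0.08 on replicate 2) and -0.37 at 8 h, with adjusted p of 1.00 and 0.774 by limma and 0.479 and 0.422 with the block. PFKFB4 had 336 and 333 in untreated cells, 311 and 317 at 3 h and 256 and 265 at 8 h. Its arrays agreed closely within each group and did not overlap between groups, yet the changes were small, -0.09 and -0.36, and the blocked interval at 8 h was -0.91 to 0.19. PFKFB2 gave 54.5 and 41.0 at 8 h and 61.6 and 93.3 at 3 h, against 80.5 and 103.3 in untreated cells, on its brightest probe set.

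PDK1 is a PDK kinase that HIF-1 induces. Its signals were 381 and 960.5 in untreated cells, 567 and 981 at 3 h and 736 and 971 at 8 h. The replicate 1 signals stepped up with time and the replicate 2 signals stood still, so that its change at 8 h was 0.95 on replicate 1 and 0.02 on replicate 2. The mean, 0.48, did not pass (adjusted p = 0.824 by limma, 0.272 with the block, blocked interval -0.03 to 1.00). PDK2 had -0.45 at 3 h and -0.44 at 8 h and PDK3 had 0.22 and -0.09, also without a call. PDK4, the starvation-induced form, stayed under 100 on its brightest probe set on all 6 arrays.

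NDRG1 was the only member that passed as higher at 8 h both without and with the block. Its signals were 510 and 592 in untreated cells, 783 and 892 at 3 h and 1635 and 1820 at 8 h. All 3 groups stood apart, and both replicate numbers gave nearly the same change, 1.68 and 1.62 at 8 h and 0.62 and 0.59 at 3 h. NDRG1 rose by 1.65 on the log2 scale at 8 h (standard error 0.21, 95% interval 1.15 to 2.15, adjusted p = 0.0217 by limma, 0.000449 with the block and 0.0188 when the local pooled error test was used). At 3 h the log2 fold change was 0.60 (adjusted p = 1.00, and 0.158 with the block), and in the blocked fit it was higher at 8 h than at 3 h by 1.05 (adjusted p = 0.0133). Its call without the block was lost without an intensity trend (adjusted p = 0.185) and when Tg 3 h replicate 2 (0.0524), Tg 8 h replicate 1 (0.176), Tg 8 h replicate 2 (0.167) or untreated replicate 1 (0.125) was left out. The blocked call was kept in each of these array removals. NDRG1 was represented by 1 probe set.

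CA12 encodes a membrane carbonic anhydrase that hydrates carbon dioxide at the cell surface. Its signals were 607 and 437 in untreated cells, 617.5 and 425 at 3 h and 279.6 and 267 at 8 h. The 8 h arrays lay below all others, and the 3 h arrays lay close to the untreated arrays of their own replicate number. CA12 fell in the blocked fit at 8 h, by 0.91 (standard error 0.30, or 0.22 with the block, adjusted p = 0.0426 with the block and 0.328 without). All 5 of its tested probe sets had values below 0 at 8 h, from -2.20 to -0.74. The blocked call was lost with quantile normalization (0.0729), with signals under 100 raised to 100 (0.0801) and without Tg 8 h replicate 1 (0.354), untreated replicate 1 (0.347) or untreated replicate 2 (0.127).

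**Figure D3:**
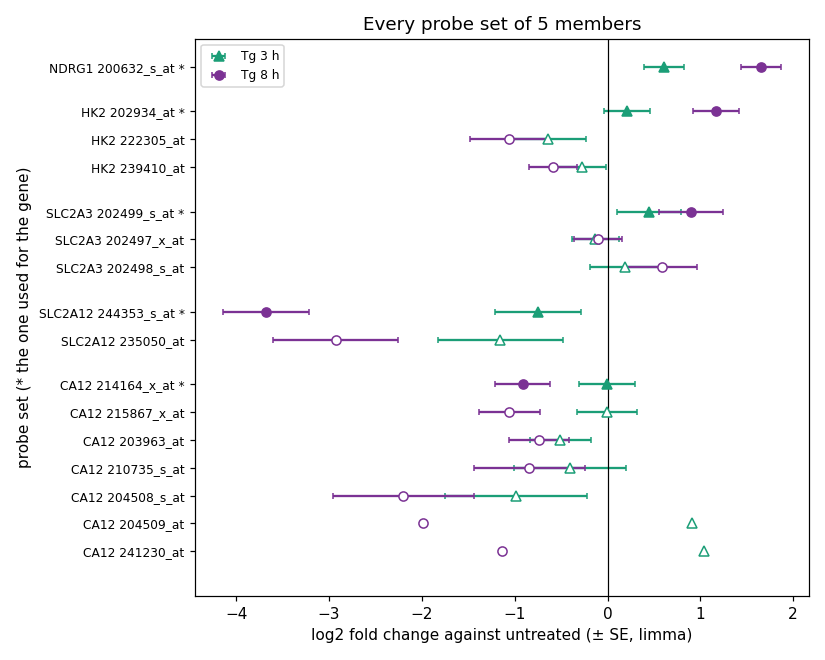
Log2 fold change against untreated cells (horizontal axis, ± standard error from limma without the block) at 3 h of Tg (triangles) and 8 h of Tg (circles) for every probe set annotated to NDRG1, HK2, SLC2A3, SLC2A12 or CA12 alone. Filled symbols and asterisks mark the probe set used for the gene, and probe sets too dim to test carry no error bar; the 3 probe sets of HK2 lie at 1.17, -1.06 and -0.58 at 8 h, while the 2 of SLC2A12 lie at -3.68 and -2.93.

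ANKRD37, a small ankyrin repeat gene that HIF-1 induces directly, had signals of 414 and 288 in untreated cells, 709 and 489 at 3 h and 689.7 and 461 at 8 h. Both Tg groups lay above the untreated arrays, and within each replicate number the change was alike, 0.78 and 0.77 at 3 h and 0.74 and 0.68 at 8 h. The log2 fold changes of 0.77 and 0.71 did not pass (adjusted p = 1.00 and 0.535 by limma, 0.148 and 0.0671 with the block, with a blocked interval of 0.27 to 1.15 at 8 h). ADM, which encodes the vasodilator peptide adrenomedullin, had 183 and 365 in untreated cells, 76.2 and 196 at 3 h and 82.1 and 189 at 8 h. Its log2 fold changes were -1.08 and -1.05, negative within both replicate numbers at both times (-1.16 and -0.95 at 8 h), without a call (blocked adjusted p = 0.309 and 0.147). Its replicate 2 signals exceeded replicate 1 in every group, and the Tg and untreated groups overlapped for that reason.

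The mitophagy receptor BNIP3, a usual marker of HIF activity, had 1155 and 1462 in untreated cells, 799.5 and 1084 at 3 h and 1191 and 1223 at 8 h. It lay below the untreated arrays at 3 h and within their range at 8 h. The log2 fold changes were -0.48 (blocked interval -0.85 to -0.11, adjusted p = 0.297) and -0.11 (-0.47 to 0.26, 0.776). Its relative BNIP3L had -0.13 and 0.27, and the histone demethylase KDM3A had -0.04 and -0.00, with a blocked interval of -0.42 to 0.41 at 8 h. The 7 tested genes of this group had a median of -0.00 at 8 h, 3 of them within 0.5 of 0, and held both the highest of the 34 members, NDRG1 at 1.65, and the second lowest, ADM at -1.05.

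**Figure D4:**
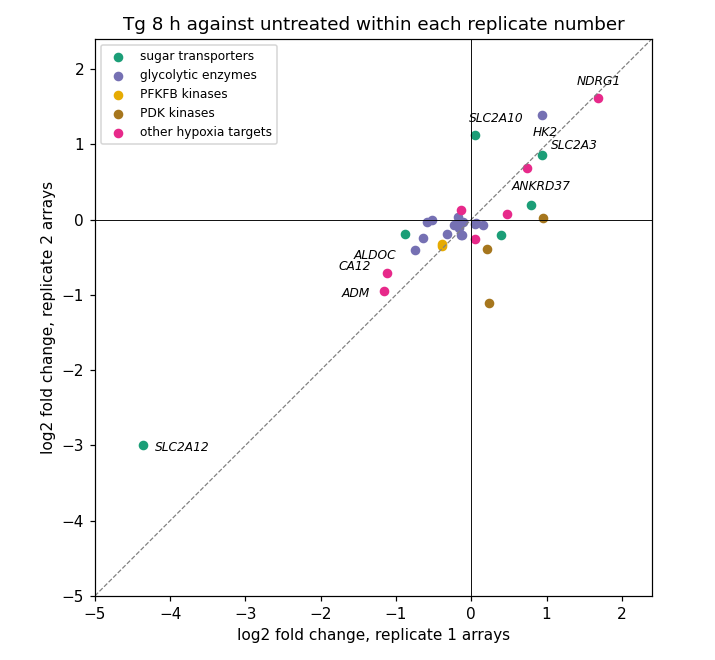
Log2 fold change at 8 h of Tg against untreated cells on the replicate 1 arrays (horizontal axis) and on the replicate 2 arrays (vertical axis) for the 34 tested members, coloured by group of genes, with the line of equal change dashed. NDRG1 (1.68 and 1.62), SLC2A3 (0.94 and 0.86) and ANKRD37 (0.74 and 0.68) lie near the line, and SLC2A10 (0.05 and 1.13) lies away from it.

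Arrays of 2 groups that do not overlap were common in the whole series. At 3 h, 4 members (11.8%) had both Tg arrays above both untreated arrays (ENO2, PFKFB3, NDRG1 and ANKRD37), where 14% of all genes did, and 5 (14.7%) had both below (SLC2A12, ALDOC, LDHA, PFKFB4 and BNIP3), where 16.5% did. At 8 h these were 5 (SLC2A3, SLC2A10, HK2, NDRG1 and ANKRD37; 14.7%), against 15.3%, and 6 (SLC2A12, ALDOC, PGAM1, LDHA, PFKFB4 and CA12; 17.6%), against 26.7%. At 8 h against 3 h, 5 members (14.7%) had both arrays above, where 14% of all genes did, and 9 (26.5%) had both below, where 22.6% did. Between the Tg times, limma without the block called no member, as it called 0% of all genes in either direction; before adjustment, 2 members were higher and 4 lower at p under 0.05, as were 2.77% and 5.05% of all genes. The blocked fit called HK2 and NDRG1 higher at 8 h than at 3 h, where it called 1.53% of all genes, and SLC2A12 lower, with a log2 difference of -2.93 (adjusted p = 0.00759), where it called 1.72%. Both Tg times were set against the same untreated arrays, so the values at 3 h and 8 h are not independent.

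Genes of the same pathways outside the list were read in the same way. Of 9 tested sugar and monocarboxylate transporters, 0 passed in either fit at either time. Of 17 tested genes of glycolysis and pyruvate entry, 0 passed without the block, and at 8 h with it 2 rose (11.8%, against 4.76% of all genes) and 1 fell (5.88%, against 3.79%). The mitochondrial pyruvate carrier subunit MPC1 rose by 0.67 (2174 and 2275 at 8 h against 1389 and 1406, blocked adjusted p = 0.0195). PDP1, the phosphatase that reactivates pyruvate dehydrogenase, fell by 0.95 (2658 and 3684 at 8 h against 5183 and 7082, blocked adjusted p = 0.00134). HKDC1, a hexokinase-like gene, had 673 and 1642 at 8 h against 38.1 and 473 in untreated cells (2.97, blocked adjusted p = 0.0225), so its untreated arrays disagreed widely. Of 5 tested glucose-responsive targets and partners of MLX, such as TXNIP, 0 passed.

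Among 26 further tested hypoxia targets, 1 fell (3.85%, against 0.21% of all genes) and 0 rose at 8 h without the block. With the block, 3 rose (11.5%, against 4.76%) and 1 fell (3.85%, against 3.79%) at 8 h, and 2 rose at 3 h (7.69%, against 1.17%). The repressor BHLHE41 fell by 1.75 at 8 h (209.8 and 220.2 against 723 and 720, adjusted p = 0.0289 by limma). VEGFA, the angiogenic growth factor, rose by 1.62 in the blocked fit (10979 and 9601 at 8 h against 1854 and 6031, adjusted p = 0.0203), and its untreated arrays disagreed widely. LOX, the collagen cross-linking oxidase, rose by 0.84 at 8 h (blocked adjusted p = 0.00530), and CITED2, an inhibitor of HIF, rose by 1.96 at 3 h (2118 and 1796 against 391 and 639, blocked adjusted p = 0.00333) and had 0.12 at 8 h. BHLHE40 rose by 1.29 at 3 h and by 0.79 at 8 h in the blocked fit. The median of the 26 genes was 0.05 at 3 h and 0.19 at 8 h, against -0.02 and -0.09 over all genes. At 8 h 15 of them (57.7%) lay within 0.5 of 0, against 71.1% of all genes.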

How the data were processed

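RNA of untreated and Tg-treated Daoy cells was measured on 6 expression arrays. The deposited values are linear intensities that the authors made with MAS5, each array scaled to a trimmed mean of about 500.1; detection calls were not used. The study names 2 independent experiments, but not which cultures share a number, so the tests measure only how far these arrays spread. The annotation gave 1 gene symbol to 41097 of the 54675 probe sets, more than 1 to 1801 and no symbol to 11777, and 0 symbols changed against RefSeq. Signals were log2-transformed and fitted over all 6 arrays in R 4.3.3 with limma 3.58.1 (lmFit, eBayes with an intensity trend, two-sided, Benjamini-Hochberg), with and without the replicate number as a block; same-numbered arrays deviated together (correlations across probe sets of 0.26 to 0.32). An exact permutation test of 2 against 2 arrays cannot go below p = 0.333. The fits were also run on simulated data. The changes planted there were larger than those of all called members but SLC2A12, so that run does not cover the smaller calls. Alternatives were the local pooled error test, other scalings, filters and floors, and leaving out each array. All called members and 13 genes set by name are given with every array, except SLC16A3 and CA9 of the 13, which had no probe set of their own. Members and lists were chosen with earlier results of these data known. Promoters were searched in Python 3.11.15.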

Additional observations from a re-analysis of the deposited data

Results flagged for a closer look

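For 3 members the change at 8 h differed from the change at 3 h by a test of the difference itself in the blocked fit of limma, with both times set against the same untreated arrays. SLC2A12 was lower at 8 h than at 3 h by a log2 difference of -2.93 (adjusted p = 0.00759), and both of its 8 h signals lay under 100. HK2 was higher at 8 h by 0.96 (adjusted p = 0.0232) on its brightest probe set, while its 2 dimmer probe sets did not share that direction. NDRG1 was higher at 8 h by 1.05 (adjusted p = 0.0133). Without the block none of the 3 differences passed, and limma then called 0 of 12839 genes between the Tg times, with 355 higher and 649 lower at an unadjusted p under 0.05.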

How the results depend on the processing

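With the replicate block, which treats arrays of the same number as paired, the members higher at 8 h numbered 3 in place of 1 and those lower 2 in place of 1. Without an intensity trend both counts were 0, and the lower count was also 0 by the local pooled error test and with only the 4 arrays compared. Leaving out each array gave 0 to 1 higher and 0 to 1 lower without the block, and 2 to 3 higher and 1 to 2 lower with it. In the blocked fit the lower count was 1 with quantile normalization and 1 with signals under 100 raised to 100. At 3 h every count stayed 0 in each alternative run. The enzyme median at 8 h was -0.050 after centring on the median, which shifted all genes by 0.09, and -0.19 to -0.029 when arrays were left out, the highest without Tg 8 h replicate 1. HK2 turned to -0.24 at 3 h and -0.16 at 8 h as the mean of its probe sets. With arrays left out, its value at 3 h ran from -0.077 to 0.50 without the block and from -0.090 to 0.51 with it (-0.053 without Tg 3 h replicate 2), and that of CA12 from -0.28 to 0.26 and from -0.14 to 0.13 (0.077 without untreated replicate 1). Over NDRG1, SLC2A12, HK2, SLC2A3 and CA12 at both times and in both fits, 218 alternative values kept direction and side of the threshold, 20 lost a call, 3 gained one and 9 changed sign. Most of these values belong to results with no call to lose, among them all at 3 h, so the 218 do not measure how stable the calls were. The 20 lost calls were all at 8 h, of NDRG1 and SLC2A12 without the block and of SLC2A3 and CA12 with it. Causes were not tested. The limits are the 2 arrays per group and the dim probe sets such as those of SLC2A12 at 8 h, ADM and ALDOC, whose signals lie near or under 100.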
